A study of Sus scrofa with 12 samples.

Results

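The unfolded protein response and the integrated stress response were examined in the striatum of newborn piglets through 34 genes, chosen by name from a list of 35 as sensors, transcription factors, feedback regulators and target genes of these pathways. The remaining name, XBP1, was not a gene name in the authors' deposited table and was left out of all counts. The 34 genes are part of the 25880 genes of the deposited count table, and 33 of them were among the 14004 genes with enough counts to be tested. CDNF, a neurotrophic factor of the endoplasmic reticulum, had 15 counts in all 12 libraries and was not tested.

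In the unfolded protein response, the membrane sensors ATF6, IRE1 (gene ERN1) and PERK (EIF2AK3) detect misfolded proteins in the endoplasmic reticulum and switch on genes for chaperones and for the removal of misfolded proteins. In the integrated stress response, PERK and the kinases encoded by EIF2AK1 and EIF2AK4 phosphorylate the translation initiation factor eIF2. This lowers general protein synthesis while the transcription factor ATF4 is translated more, and ATF4 then raises genes for amino acid supply and for feedback control. Both pathways are known to be engaged in the brain after ischaemia. The sensors are switched on by splicing, cleavage, phosphorylation and translation, which gene-level counts do not show.

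RNA from 12 neonatal piglets was sequenced, 6 per group. The labels name the tissue as striatum. The DHCA piglets (n = 6), which underwent deep hypothermic cardiac arrest, were given 4% isoflurane and went on cardiopulmonary bypass through an opened sternum. They were cooled to 18 °C, kept without circulation for 30 min, warmed to 37 °C on bypass and given 6 h of recovery. The sham piglets (n = 6) were held under 4% isoflurane, and the labels record neither surgery nor a recovery time for them. Surgery, bypass, cooling and arrest therefore cannot be told apart as sources of a difference. No strain, sex or batch is given in the labels used here. The comparison asks how RNA levels differed 6 h after the whole procedure.

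Counts per library ranged between 5434652 and 9997400 in DHCA and between 1377809 and 12933536 in sham. Sham 5 (1377809 counts) and Sham 1 (2515816) were the shallowest libraries, and 4.01% of counts in Sham 1 and 7.30% in Sham 5 were mitochondrial, against 10.6% to 26.3% in the other 10. Sham 4 went against its tissue label. Markers of spiny projection neurons, the main cell type of the striatum, took 0.0113% of its counts, against 0.204% to 0.460% in the DHCA libraries and 0.272% to 0.595% in the other sham libraries. Markers of excitatory neurons of the cortex took 0.0999% of its counts and at most 0.00225% elsewhere, and 5 of the 6 sham libraries were above all DHCA libraries, which reached 0.00149%. Results are given with Sham 4 and, where it matters, without it. The 5 oligodendrocyte markers took 0.454% to 5.84% of counts in DHCA, with the highest share in DHCA 3, and 0.984% to 3.11% in sham. Red cell markers (4 found) took 0.00239% to 0.00589% in DHCA and 0.00338% to 0.0255% in sham, where 5 of 6 libraries lay above all DHCA libraries. Markers of plasma cells, which are rich in endoplasmic reticulum, took 0.00109% to 0.00155% in DHCA and 0.00112% to 0.00231% in sham, with 4 of 6 sham libraries above all DHCA libraries. One of these markers, DERL3 (27 counts in all), is also on the second list of pathway genes below, so this share is not independent of the pathways. The part of these differences in the results was not tested.

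None of the 33 tested stress response genes passed 0.05 between DHCA and sham in the edgeR quasi-likelihood test with Benjamini-Hochberg adjustment over all genes. The threshold was passed by 26 of the 14004 genes, or 0.186%, and by 9 to 51 genes when 1 library was left out. The smallest adjusted p among the stress response genes was 0.0689, for TRIB1. At an unadjusted p under 0.05, TRIB1, TRIB3, EDEM1 and SLC3A2 were higher in DHCA and CRELD2 was lower. These 5 genes are 15.2% of the 33, where 7.9% of all genes had such a p, 3.43% on the higher side and 4.47% on the lower. DESeq2 called 2 of the 33 (TRIB1 and TRIB3) and limma-voom with sample quality weights called 3 (TRIB1, TRIB3 and ERN1), all higher in DHCA, with backgrounds of 1.24% and 1.48% of all genes. With Sham 1 left out of the edgeR fit, 7 genes were higher at an unadjusted p under 0.05, where 3.82% of all genes were. With DHCA 3 left out 2 were higher, where 3.22% of all genes were. In each of these fits 1 gene was lower. Without Sham 2, 4 genes were higher and 3 lower. Shares of all genes are not given here for the lower side or for the fit without Sham 2. Without Sham 4, 0 genes were called by edgeR, and 3 higher and 1 lower had an unadjusted p under 0.05, with a background of 7.12% of all genes.

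Fold changes were small for most of these genes. Of the 33, 19 (57.6%) had a positive fold change, against 49.5% of all genes, and without Sham 4 there were 18, with 49.8% of all genes positive. Their median log2 fold change (DHCA minus sham) was 0.07, beside -0.0030 for all 14004 genes, and lay between -0.00058 (without DHCA 3) and 0.09 when 1 library was left out. In 29 of the 33 the log2 fold change was under 0.5 in size, and for 26 the 95% interval lay inside a 2-fold change in either direction. For the other 7, a change of 2-fold or more was not outside the interval. In bulk tissue, fewer cells of a type and less RNA per cell cannot be told apart, and this holds for every difference below.

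**Figure D1:**
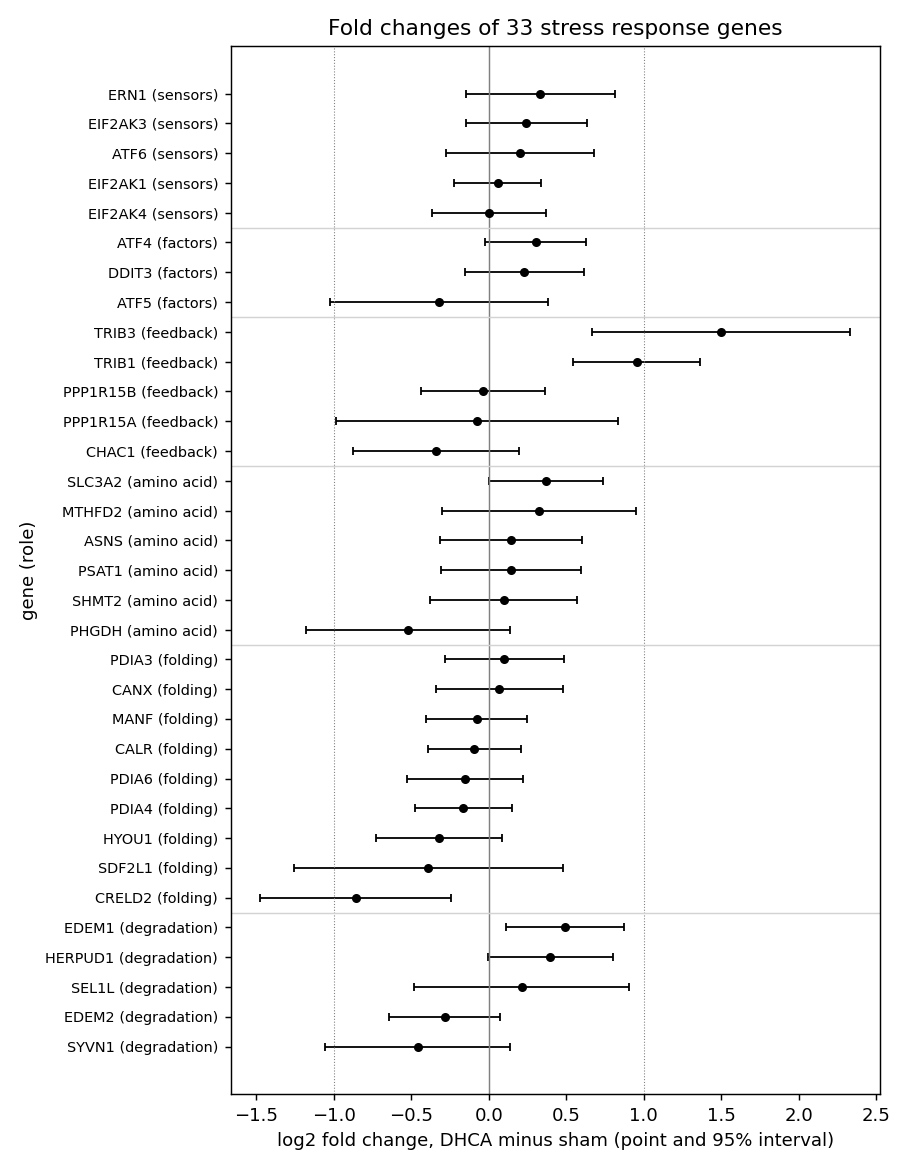
Log2 fold change (DHCA minus sham, x axis) of each of the 33 tested stress response genes (y axis, with its role), from the edgeR fit on 6 DHCA and 6 sham libraries. Points are estimates and lines are 95% intervals. TRIB3 and TRIB1 lie furthest to the right at 1.498 and 0.95, CRELD2 lies furthest to the left at -0.86, and 28 of the 33 intervals cross 0.

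Among the sensors and kinases, all 5 fold changes were positive, with a median of 0.20 on the log2 scale, and none had an unadjusted p under 0.05. EIF2AK4, which encodes the amino acid sensor GCN2, was at 0.0015 (SE 0.17). It was negative in 6 of the 12 fits that left out 1 library, and 4 of the 5 genes were positive with DESeq2 size factors or upper-quartile factors. Without DHCA 3, 3 of the 5 were positive and the median was 0.09, and without Sham 1 it was 0.10.

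ERN1 encodes IRE1, the kinase and nuclease that splices XBP1 messenger RNA. Its level was 8.24 CPM at the lowest, 10.3 at the median and 11.4 at the highest DHCA library, against 5.58, 7.55 and 13.2 CPM in sham. CPM, a unit of counts relative to the TMM-adjusted size of the library, is used for all levels. The groups overlapped, and the highest of all 12 libraries was Sham 1, while the other 5 sham libraries reached 8.67 CPM. On the log2 scale the difference was 0.33 (SE 0.22, edgeR adjusted p = 0.779). Without Sham 1 it was 0.52 (edgeR adjusted p = 0.380), and with the libraries weighted by quality in limma-voom it was 0.65 (adjusted p = 0.0336).

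EIF2AK3 encodes PERK, which responds to misfolded proteins by phosphorylating eIF2. It had a lowest, median and highest level of 42.0, 48.0 and 63.0 CPM in DHCA and of 25.6, 42.7 and 51.1 CPM in sham. DHCA 3 was the highest library and Sham 1 the lowest. Sham 3 and Sham 6 were also below all DHCA libraries, while Sham 2, Sham 4 and Sham 5 lay among them. The edgeR fit gave a log2 fold change of 0.24 (SE 0.18, edgeR adjusted p = 0.799). For ATF6, the transcription factor released from the membrane by cleavage, the mean was 153 ± 47.7 CPM in DHCA and 133 ± 35.3 CPM in sham (SD, n = 6 each). EIF2AK1, the haem-regulated kinase, averaged 41.7 ± 4.66 CPM in DHCA and 40.1 ± 3.07 CPM in sham, with an interval of the log2 fold change between -0.22 and 0.34. Of its exon bases, 32.4% are shared with another gene, and for EIF2AK4 26.1% are. The counting used no strand option, so reads there cannot be assigned to 1 of the genes.

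Of the 3 transcription factors, ATF4 and DDIT3 had a positive fold change and ATF5 a negative one, with a median of 0.23 on the log2 scale and of 0.11 without DHCA 3. ATF4, the main effector of the integrated stress response, had 95.7, 120 and 135 CPM as its lowest, median and highest value in DHCA, against 79.9, 93.3 and 119 CPM in sham. DHCA 2, DHCA 3 and DHCA 4 lay above all sham libraries, while DHCA 1, DHCA 5 and DHCA 6 lay among them and Sham 1 was the highest sham library. For the comparison, the log2 fold change was 0.30 (SE 0.15, edgeR adjusted p = 0.686). Without Sham 1 it was 0.37 (unadjusted p = 0.0169 and adjusted p = 0.410 by edgeR), and on all libraries the unadjusted p was 0.0264 by DESeq2 and 0.0133 by limma-voom. Since ATF4 is regulated mainly at translation, its RNA level is an incomplete measure of its activity.

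DDIT3 encodes CHOP, a transcription factor linked to cell death under lasting stress. Its levels were low, at 5.98, 6.83 and 9.68 CPM (lowest, median, highest) in DHCA and 5.49, 6.21 and 6.74 CPM in sham. DHCA 3 stood above all other libraries, DHCA 1, DHCA 4 and DHCA 6 lay just above the highest sham library, and DHCA 2 and DHCA 5 lay within the sham range. The log2 fold change was 0.23 (SE 0.18, 95% interval -0.15 to 0.61, edgeR adjusted p = 0.805), so an increase of 2-fold lay outside the interval. ATF5, a factor of the same family as ATF4, averaged 6.70 ± 1.64 CPM in DHCA and 8.73 ± 5.55 CPM in sham, with 19.8 CPM in Sham 1. Another gene shares 33.3% of the exon bases of DDIT3.

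The feedback regulators and late effectors were grouped by name, and what each does in these pathways was not tested. The pseudokinase genes TRIB1 and TRIB3, of this role, were the only stress response genes whose DHCA libraries all lay on 1 side of the sham libraries, higher in both. Such a separation was found in 0.993% of all tested genes. TRIB1 (ENSSSCG00000038500, Sscrofa11.1 chromosome 4, 14287252 to 14298100) encodes a scaffold that brings target proteins to a ubiquitin ligase. Its lowest, median and highest levels were 24.5, 33.6 and 45.2 CPM in DHCA and 12.02, 17.9 and 20.1 CPM in sham. DHCA 2 and DHCA 4 were the highest, and Sham 1 was below the other 5 sham libraries, which lay close together. TRIB1 averaged 33.9 ± 8.34 CPM in DHCA and 17.4 ± 2.81 CPM in sham (SD, n = 6 each). The estimated log2 fold change was 0.95 (SE 0.19, 95% interval 0.54 to 1.36, unadjusted p = 0.0002 and adjusted p = 0.0689 by edgeR). With 1 library left out it lay between 0.85 and 1.03, and the adjusted p between 0.0627 and 0.187. Without Sham 4 it was 0.97 (edgeR adjusted p = 0.135), and DESeq2 gave an adjusted p of 0.000675.

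TRIB3 (ENSSSCG00000039862, chromosome 17, 34777324 to 34815987) is a target of ATF4 and CHOP, and its protein binds ATF4 and limits its activity. It was a low gene, with 18 to 68 counts in the DHCA libraries and 2 to 33 in sham. Scaled for depth, its lowest, median and highest levels were 3.71, 5.35 and 6.72 CPM in DHCA and 0.284, 2.35 and 3.33 CPM in sham. Sham 4 was far below the others with 2 counts, and Sham 5, with 5 counts, was the highest sham library. Its fitted log2 fold change was 1.498 (SE 0.39, 95% interval 0.66 to 2.33, unadjusted p = 0.0017 and adjusted p = 0.193 by edgeR). Without Sham 4 it was 1.24 (SE 0.28, edgeR adjusted p = 0.176), and DESeq2 on all libraries gave an adjusted p of 0.0120. In all 12 fits that left out 1 library, TRIB1 and TRIB3 stayed higher in DHCA at an unadjusted p under 0.05.

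**Figure D2:**
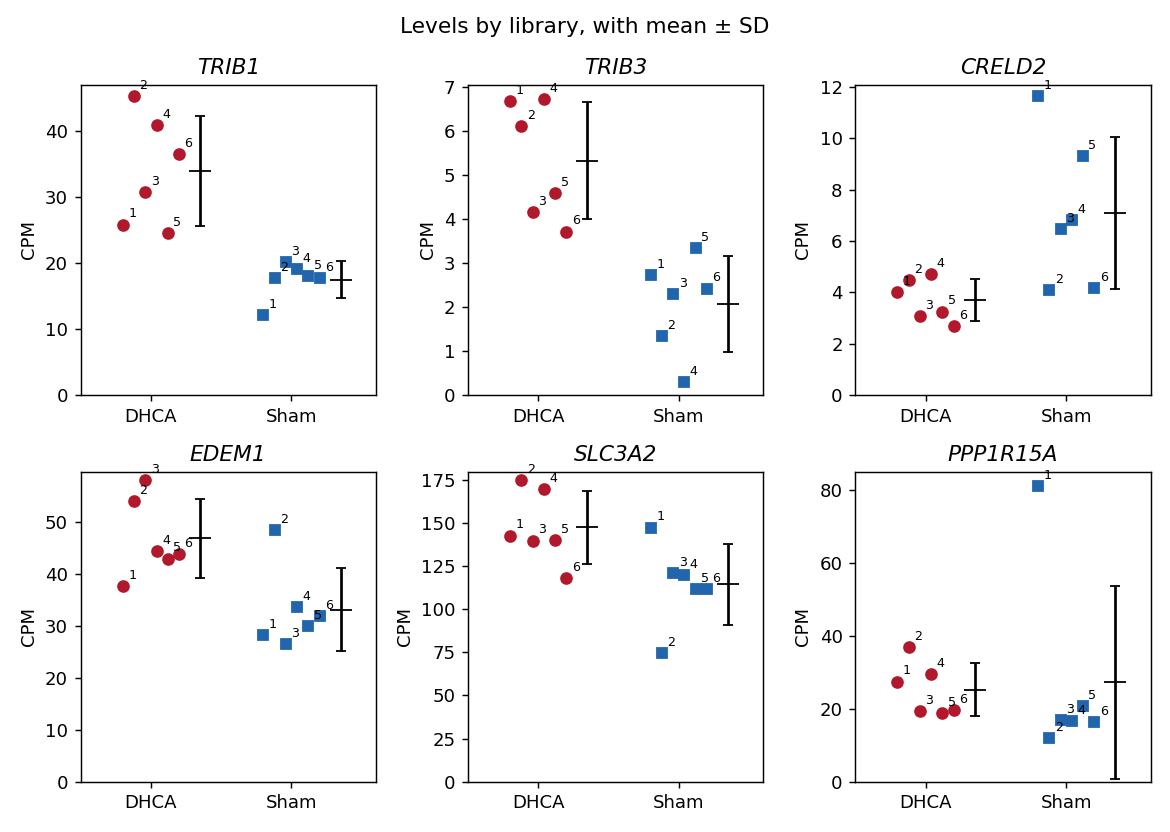
Level in CPM (y axis, starting at 0) of 6 stress response genes in each DHCA and sham library (x axis, n = 6 per group). Points are libraries with their numbers, and bars show the mean and SD. TRIB1 and TRIB3 do not overlap between the groups, CRELD2, EDEM1 and SLC3A2 overlap in part, and the sham value of PPP1R15A at 81.0 CPM is Sham 1.

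PPP1R15A encodes GADD34, the inducible phosphatase subunit that removes the phosphate from eIF2. It is described in full because of 1 library, a choice made after its values were seen. The lowest, median and highest levels were 18.8, 23.5 and 36.8 CPM in DHCA and 11.98, 16.8 and 81.0 CPM in sham. The highest sham value was that of Sham 1, and the other 5 sham libraries lay between 11.98 and 20.6 CPM, overlapping only the lower DHCA libraries. On the log2 scale the difference was -0.07 (SE 0.42, edgeR adjusted p = 0.974) with Sham 1 and 0.63 (unadjusted p = 0.00921 and adjusted p = 0.338 by edgeR) without it. Its constitutive counterpart PPP1R15B averaged 129 ± 9.59 CPM in DHCA and 132 ± 43.8 CPM in sham, again with the highest value, 219 CPM, in Sham 1. CHAC1, which encodes a glutathione-degrading enzyme induced by ATF4, averaged 7.23 ± 1.23 CPM in DHCA and 9.27 ± 3.87 CPM in sham, with 16.3 CPM in Sham 1. The median log2 fold change of the 5 feedback regulators and late effectors was -0.04, the value of PPP1R15B. Without Sham 1 the median was 0.63, the value of PPP1R15A. In that fit TRIB1 and TRIB3 lay above it, and PPP1R15B at 0.16 and CHAC1 at -0.13 lay below it.

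In amino acid and one-carbon metabolism, 5 of 6 fold changes were positive and the median was 0.14 on the log2 scale, while without Sham 1 the count was 3 of 6. SLC3A2 encodes the heavy chain of several amino acid exchangers of the cell membrane. It had 118, 141 and 175 CPM as its lowest, median and highest value in DHCA, against 74.6, 116 and 147 CPM in sham. DHCA 2 and DHCA 4 were above all sham libraries and Sham 2, Sham 5 and Sham 6 were below all DHCA libraries, with overlap between the rest. The log2 fold change was 0.37 (SE 0.17, unadjusted p = 0.0493 and adjusted p = 0.630 by edgeR), and without Sham 4 the unadjusted p was 0.0572. With 1 library left out, the edgeR unadjusted p of SLC3A2 was under 0.05 in only 2 of 12 fits. On all libraries it was 0.0209 by DESeq2 and 0.00449 by limma-voom.

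PHGDH, the first enzyme of serine synthesis, was the only negative gene of the 6. Its lowest, median and highest levels were 32.2, 68.5 and 75.4 CPM in DHCA and 49.2, 67.5 and 156 CPM in sham. The medians of the groups were close. DHCA 5 and DHCA 6 were the lowest libraries and the shallow libraries Sham 1 and Sham 5 the highest. For the comparison, the log2 fold change was -0.52 (SE 0.31, edgeR adjusted p = 0.757), and without Sham 1, Sham 4 and Sham 5 it was -0.03. ASNS, which encodes asparagine synthetase and is a standard target of ATF4, averaged 30.2 ± 2.98 CPM in DHCA and 27.1 ± 8.61 CPM in sham. The serine pathway gene PSAT1 had a log2 fold change of 0.14 (SE 0.21), and the mitochondrial folate enzyme genes SHMT2 and MTHFD2 had 0.10 (SE 0.22) and 0.32 (SE 0.29). Without Sham 4, SHMT2 was at 0.0086 (SE 0.22) and ASNS, at 0.14 (SE 0.21) with it, was at 0.25 (SE 0.21).

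Among the 9 tested folding and secreted factors, 7 had a negative fold change, and the median was -0.15 on the log2 scale. Without Sham 5 the median was -0.065, without DHCA 6 -0.099 and without DHCA 5 -0.101, and without Sham 1 there were 8 negative genes of 9. CRELD2 (ENSSSCG00000000981, chromosome 5, 707717 to 716917), an endoplasmic reticulum protein that is secreted in part and is induced by ATF6, had the only unadjusted p under 0.05. Its lowest, median and highest levels were 2.68, 3.63 and 4.70 CPM in DHCA and 4.08, 6.65 and 11.6 CPM in sham. DHCA 2 and DHCA 4 overlapped with Sham 2 and Sham 6, and the highest values were those of Sham 1 and Sham 5, from 30 and 14 counts. Between the groups the log2 fold change was -0.86 (SE 0.29, 95% interval -1.47 to -0.24, unadjusted p = 0.0097 and adjusted p = 0.397 by edgeR). With 1 library left out it lay between -0.99 and -0.66, and the edgeR unadjusted p stayed under 0.05 in all 12 fits. On all libraries it was -0.83 by DESeq2 (unadjusted p = 0.00637) but -0.37 by limma-voom with sample quality weights (unadjusted p = 0.0915). Without Sham 1, Sham 4 and Sham 5 it was -0.39 (edgeR unadjusted p = 0.154).

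HYOU1 encodes a large chaperone induced by oxygen lack. It had 132, 160 and 202 CPM as its lowest, median and highest value in DHCA, against 146, 198 and 295 CPM in sham. The groups overlapped, and Sham 1 was the highest library. The estimated log2 fold change was -0.32 (SE 0.19, edgeR adjusted p = 0.760), and without Sham 1, Sham 4 and Sham 5 it was -0.04.

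For the other folding genes the fold changes lay on both sides of 0. The disulphide isomerases PDIA3, PDIA4 and PDIA6 had log2 fold changes of 0.10 (SE 0.18), -0.17 (SE 0.15) and -0.15 (SE 0.17). Of the exon bases of PDIA6, 25.0% are shared with another gene. The lectin chaperones calreticulin (CALR) and calnexin (CANX) had -0.09 (SE 0.14) and 0.07 (SE 0.19). The intervals of these 5 genes all lay inside a 2-fold change. The secreted neurotrophic factor gene MANF averaged 26.5 ± 3.34 CPM in DHCA and 27.9 ± 4.22 CPM in sham. SDF2L1, a partner of chaperones in the endoplasmic reticulum, averaged 2.15 ± 0.987 CPM in DHCA and 3.05 ± 1.80 CPM in sham, with a log2 fold change of -0.39 (SE 0.40). CDNF had between 0 and 4 counts per DHCA library and between 0 and 5 per sham library. It was at 0 in DHCA 2, DHCA 5 and Sham 3 to Sham 6, where 3 counts, the upper limit that a count of 0 allows, would be 0.220 to 2.00 CPM.

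HSPA5, which encodes the chaperone BiP that holds the sensors inactive, is not one of the 34 genes but is the classic readout of the unfolded protein response. Its lowest, median and highest levels were 208, 236 and 309 CPM in DHCA and 228, 311 and 350 CPM in sham. The groups overlapped, with DHCA 5, DHCA 3 and DHCA 6 below all sham libraries. The log2 fold change was -0.30 (SE 0.16, 95% interval -0.64 to 0.05, edgeR adjusted p = 0.735), so an increase of 2-fold lay outside the interval. The RNA of XBP1 itself, followed by its gene ID, averaged 0.19 higher on the log2 scale in DHCA (SE 0.15, edgeR adjusted p = 0.811). Its spliced and unspliced forms cannot be separated in these counts.

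In the degradation of misfolded proteins, 3 of 5 fold changes were positive, with a median of 0.21 on the log2 scale, and without Sham 1, Sham 4 and Sham 5 the count was 2 of 5 and the median -0.09. Leaving out 1 library moved the median to 0.013 (DHCA 3), 0.029 (Sham 1), 0.11 (Sham 5) or 0.43 (Sham 2). EDEM1 encodes a protein that marks misfolded glycoproteins by trimming of mannose. Its lowest, median and highest levels were 37.7, 44.1 and 58.1 CPM in DHCA and 26.4, 30.9 and 48.5 CPM in sham. Only Sham 2, the highest sham library, lay among the DHCA libraries, and the other 5 sham libraries were below all of them. On the log2 scale the difference was 0.49 (SE 0.18, unadjusted p = 0.0148 and adjusted p = 0.445 by edgeR). With 1 library left out the unadjusted p stayed under 0.05 in 11 of 12 fits. Without Sham 1, Sham 4 and Sham 5 the log2 fold change of EDEM1 was 0.38 (edgeR unadjusted p = 0.111).

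HERPUD1, a membrane protein of the ligase complex that clears misfolded proteins, had 65.4, 70.3 and 73.0 CPM as its lowest, median and highest value in DHCA and 29.1, 57.0 and 69.7 CPM in sham. The 6 DHCA libraries lay close together, while the sham libraries were spread widely, with Sham 1 the lowest and Sham 3 the only one among the DHCA libraries. The edgeR fit gave a log2 fold change of 0.40 (SE 0.19, edgeR adjusted p = 0.638), and without Sham 1, Sham 4 and Sham 5 it was 0.14. SEL1L, the adaptor of this complex, had 0.21 (SE 0.32). EDEM2 had -0.29 (SE 0.17). SYVN1, the ubiquitin ligase HRD1, had -0.46 (SE 0.28), with 65.2% of its exon bases shared with other genes.

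**Figure D3:**
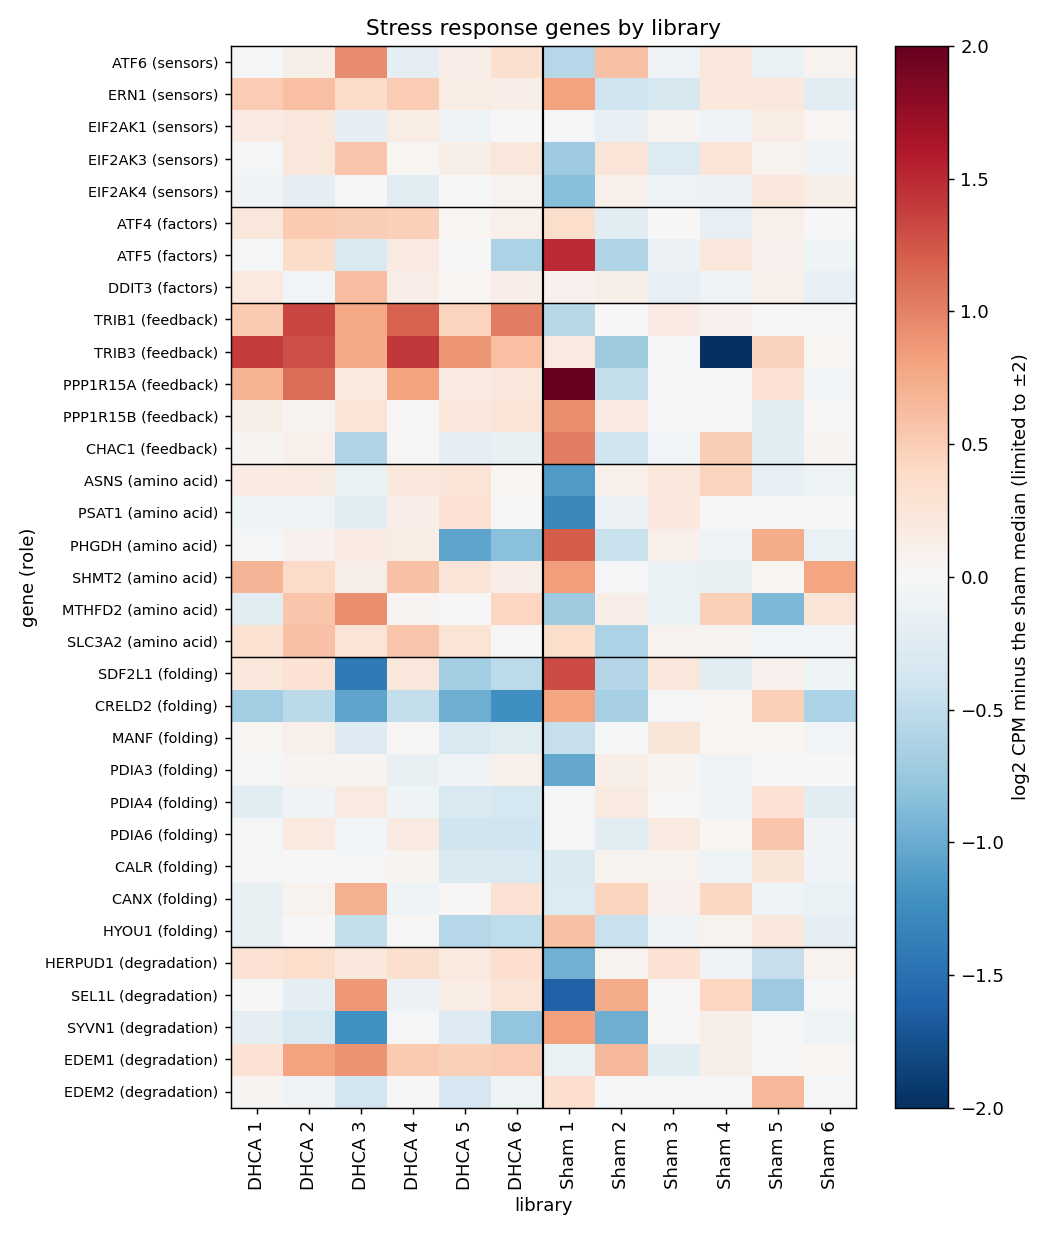
Log2 CPM of each stress response gene (y axis, by role) minus its sham median, in 6 DHCA libraries and 6 sham libraries (x axis, DHCA left of the line). Colours run from -2 to 2. TRIB1 and TRIB3 are above the sham median in all 6 DHCA libraries, Sham 1 is well above it for PPP1R15A and well below it for SEL1L, and the lowest field is TRIB3 in Sham 4.

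The libraries differed in how far they stood from the rest. Sham 1 had the highest value of all 12 libraries in 11 of the 33 genes and the lowest in another 11. DHCA 3 was highest in 7 and lowest in 5. The SD of log2 CPM within groups had a median of 0.31 over the 33 genes and of 0.46 over all tested genes. These sets were not matched for level, so the medians do not show that the stress response genes varied less than other genes of like level. Without Sham 1, Sham 4 and Sham 5 together, the edgeR test called 0 of the 33 genes. In that fit 6 genes were higher at an unadjusted p under 0.05 (TRIB3, TRIB1, ERN1, PPP1R15A, SLC3A2 and ATF4), where 3.14% of all genes were. None was lower, where 2.54% of all genes were.

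Per length of exon, the 5 genes with the highest level in DHCA encode chaperones, a disulphide isomerase, an amino acid transporter and a serine enzyme. CALR was at 119 ± 12.4 CPM per kb in DHCA and 127 ± 15.8 in sham. SLC3A2 followed with 95.2 ± 13.7 CPM per kb in DHCA and 73.9 ± 15.2 in sham. The next 3 genes in DHCA were PDIA3 at 80.5 ± 5.24, PSAT1 at 76.4 ± 9.93 and CANX at 64.7 ± 15.6 CPM per kb, and in sham they had 75.0 ± 17.6, 69.1 ± 19.6 and 61.7 ± 13.0. In DHCA, each of these 5 genes overlapped its neighbour in this order within 1 SD. In sham, CALR lay above the other 4, and those overlapped one another. ATF4 was at 20.1 CPM per kb in DHCA and 16.3 in sham, and TRIB1 at 5.27 in DHCA and 2.71 in sham. TRIB3, MTHFD2, DDIT3, CRELD2 and CHAC1 were all between 1.13 and 1.31 CPM per kb in DHCA and between 0.437 and 2.40 in sham. These levels rest on the annotated exon lengths.

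**Figure D4:**
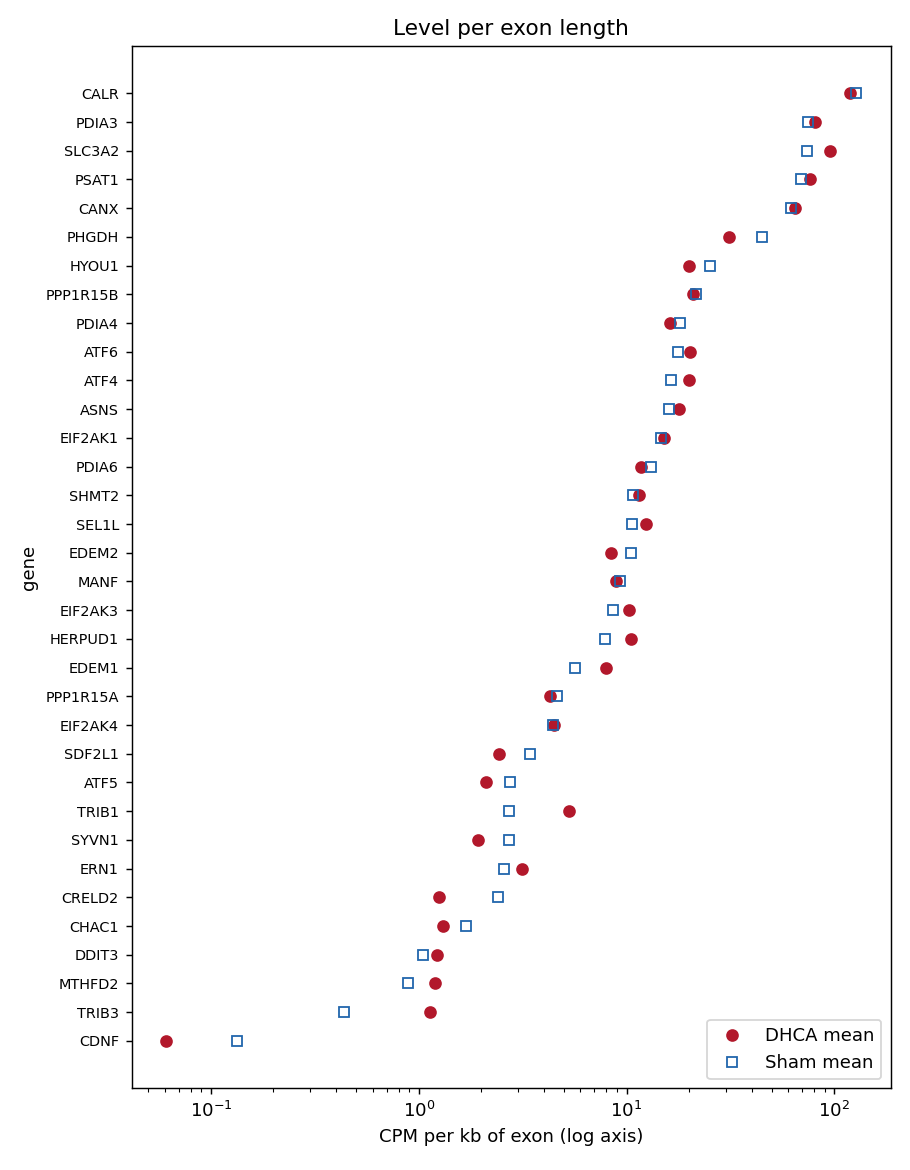
Mean level of the 34 stress response genes in CPM per kb of exon (x axis, log scale), for DHCA (filled circles) and sham (open squares), genes on the y axis. CALR is the highest at 119 in DHCA and 127 in sham, and CDNF the lowest at 0.0609 in DHCA and 0.134 in sham.

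Other genes of the same pathways were examined through a second list, chosen, like the first, with earlier results of these data known. Its shares beside those of all genes are a description and were not tested. Of its 62 names, 60 were found and 57 were tested. None was called by edgeR, where 0.186% of all genes were. At an unadjusted p under 0.05, 6 were higher in DHCA and 1 was lower, 12.3% of the 57, where 7.9% of all genes had such a p. DESeq2 called 2 of these genes (CEBPB and STC2) and limma-voom 3 (CEBPB, DDIT4 and STC2), all higher. The backgrounds were 1.24% and 1.48% of all genes. In 2 of the 57 (STC2 and CEBPG) the groups did not overlap, where this held for 0.993% of all tested genes. Of the 57, 39 (68.4%) had a positive fold change and the median was 0.07 on the log2 scale, beside -0.0030 for all genes. For 43 of them the 95% interval lay inside a 2-fold change in either direction.

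The 6 genes of this list with the smallest p are given with their values. CEBPB, a transcription factor that pairs with ATF4 and CHOP, had a lowest, median and highest level of 10.3, 17.3 and 37.2 CPM in DHCA and of 4.74, 5.84 and 13.2 CPM in sham. Only Sham 1, the highest sham library, lay among the DHCA libraries. For the comparison, the log2 fold change was 1.51 (SE 0.34, edgeR adjusted p = 0.131), and without Sham 1 it was 1.74 (edgeR adjusted p = 0.0490), so that 1 of the 57 genes was called in that fit, where 36 of 14100 genes (0.255%) were. STC2, a secreted glycoprotein and a target of ATF4, had 2.89, 4.76 and 5.26 CPM in DHCA and 1.56, 2.26 and 2.66 CPM in sham. All DHCA libraries lay above all sham libraries. Its log2 fold change was 1.00 (SE 0.23, edgeR adjusted p = 0.138).

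ATF3, a transcription factor induced by many stresses, varied widely in DHCA. It had 1.24, 7.19 and 19.7 CPM (lowest, median, highest) in DHCA and 1.08, 1.48 and 4.65 CPM in sham. DHCA 2, DHCA 4, DHCA 3 and DHCA 1 were above all sham libraries, while DHCA 5 and DHCA 6 lay within the sham range. The log2 fold change was 1.89 (SE 0.62, edgeR adjusted p = 0.375). CEBPG, which forms dimers with ATF4, had 21.8, 26.2 and 29.5 CPM in DHCA and 7.37, 20.2 and 21.6 CPM in sham. The groups did not overlap but nearly touched, and Sham 1 was far below the others. Its log2 fold change was 0.53 (SE 0.22, edgeR adjusted p = 0.567).

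DERL1, a part of the channel that exports misfolded proteins, had 46.0, 52.6 and 69.0 CPM in DHCA and 29.5, 42.1 and 46.5 CPM in sham. Sham 2 was the only sham library above the lowest DHCA library. The estimated log2 fold change was 0.43 (SE 0.16, edgeR adjusted p = 0.459). SLC7A5, the light chain that joins the SLC3A2 protein to form an amino acid exchanger, was the 1 gene of the list that was lower at an unadjusted p under 0.05. It had 39.8, 55.2 and 75.3 CPM in DHCA and 57.3, 75.3 and 156 CPM in sham, with the highest value in Sham 4 and overlap between the groups. Its log2 fold change was -0.68 (SE 0.25, edgeR adjusted p = 0.466), and without Sham 4 it was -0.46 (edgeR adjusted p = 0.690).

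**Figure D5:**
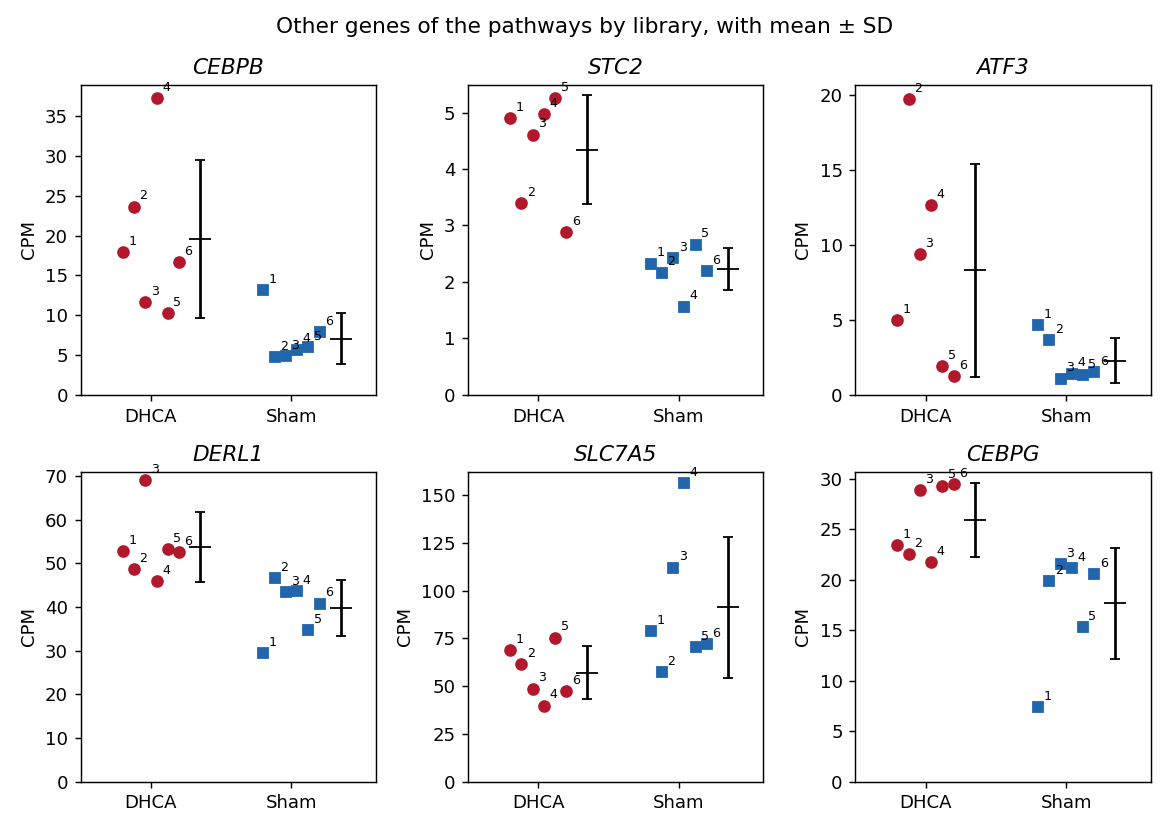
Level in CPM (y axis, starting at 0) of 6 further pathway genes in each DHCA and sham library (x axis, n = 6 per group). Points are libraries with their numbers, and bars show the mean and SD. STC2 and CEBPG do not overlap between groups, ATF3 spreads between 1.24 and 19.7 CPM in DHCA, and SLC7A5 has its highest value in sham.

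In the authors' deposited table, 33 of the 34 genes had an adjusted p, and 2 of them passed 0.05, both higher in DHCA, where 1.29% of all genes with an adjusted p passed. The authors' deposited table gives TRIB3 a log2 fold change of 1.56 (standard error 0.41, adjusted p = 0.0149) and TRIB1 one of 0.96 (standard error 0.26, adjusted p = 0.0217). For CRELD2 the authors' deposited table gives -0.83 with an adjusted p of 0.128. Which counts entered that table is not stated in the files, so its values and those above need not rest on the same libraries.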

How the data were processed

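The authors deposited raw counts per Ensembl gene. Per the file headers, featureCounts 1.5.1 counted exon reads on a Sscrofa11.1 annotation without a strand option. No aligner is named in the headers or labels. Of the library columns, 12 match the samples by number and 6 others were not used. The authors' deposited comparison table holds, per the file headers, normalized signal averaged over libraries, log2 fold changes and their errors, a statistic (a score), p-values and adjusted p-values. Its statistic has the opposite sign to the fold change in all 21223 rows, and its sign was taken to be DHCA minus sham because it correlates at 0.967 with the one computed here across 14004 genes. The submitters' processing notes name DESeq2.

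Names came from the authors' deposited table. In R 4.3.3, a filter by group (filterByExpr) and TMM scaling came before the edgeR 4.0.16 quasi-likelihood F test (robust, group as the only term), with Benjamini-Hochberg adjustment over all tested genes and a threshold of 0.05. Standard errors and 95% intervals come from the F statistic. Levels are TMM-scaled CPM, in log2 form with a prior count of 2. DESeq2 1.42.0, voom with quality weights (limma 3.58.1), other scalings and filters, a block by number and each left-out library were alternatives. The steps were tested on simulated data. The genes and lists were chosen with earlier results of these data known. Values in full are given for genes at an unadjusted p under 0.05, the 2 of smallest p in each role, HSPA5, and the 6 of smallest p of the wider list. Each library is 1 piglet, per the labels. Depth set 1 CPM at 1.502 counts in Sham 5 and 13.7 in Sham 6, and no pair of libraries within a group agreed within sampling noise (chi-square per degree of freedom at least 8.50).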

Additional observations from a re-analysis of the deposited data

Results flagged for a closer look

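Of 66 groups of 6 libraries (33 genes in 2 groups), 7 held a library whose gap to the nearest of the others was a large part of the group's range on the log2 CPM scale. Chance alone flags about 1 in 20 groups. In 6 of the 7 this library was Sham 1, which is shallow, low in mitochondrial counts and furthest from the others by correlation.

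Sham 1 was high for PPP1R15A, at 81.0 CPM with the other 5 at 11.98 to 20.6 CPM, and for PPP1R15B, at 219 CPM against 99.2 to 130 CPM. It was low for TRIB1, at 12.02 CPM against 17.6 to 20.1 CPM, for PSAT1, at 31.8 CPM against 71.7 to 90.1 CPM, for PDIA3, at 60.5 CPM against 117 to 133 CPM, and for EIF2AK4, at 27.9 CPM against 46.3 to 58.6 CPM. In the DHCA group, DHCA 3 was high for DDIT3, at 9.68 CPM against 5.98 to 7.16 CPM in the other 5. DHCA 3 also had the highest share of oligodendrocyte markers of all 12 libraries (5.84% of counts). The part of library quality and cell makeup in these values was not tested.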

How the results depend on the processing

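The count of 0 called stress response genes held under other scalings, other filters, removal of mitochondrial genes and each left-out library. DESeq2 called 181 genes in all, 2 of the 33 and 2 of the wider list, and voom with quality weights 207, 3 and 3. Leaving out 1 library gave 9 to 51 called genes, against 26 with all (without DHCA 1, 13; DHCA 2, 9; DHCA 3, 12; DHCA 4, 12; Sham 2, 51; Sham 3, 10; Sham 4, 10; Sham 5, 11), and 0 to 1 of the wider list. Without Sham 1 and Sham 5 there were 12 called genes, and without Sham 1, Sham 4 and Sham 5, 1; both settings were chosen after seeing the data, and 0 of the 33 genes was called in either. The median log2 fold change of the 33 genes, 0.07 with all libraries, lay between -0.00058 and 0.09 with 1 library left out. Deviations of same-numbered libraries correlated between -0.39 and 0.34, and only number 1 correlated best with its own. So few correlations cannot settle whether the numbers in the titles pair the animals. A replicate block by this number gave 8 called genes and 0 of the 33, with TRIB1 at an edgeR adjusted p of 0.233. Promoter motifs were not examined here, since no promoter sequences were used. Depth limits the low genes most: 1 CPM is 1.502 counts in Sham 5, and CDNF, with 15 counts in all, was not tested.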

Other observations

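Among the 6 DHCA piglets, the stress response genes were not equally high. DHCA 2 and DHCA 4 held the 2 highest values of the group in 10 of the 33 genes (30.3%), TRIB1, PPP1R15A, SLC3A2, CRELD2, HYOU1 and CALR among them. Over all tested genes these libraries held the 2 highest values in 12.7%. Over the 33 genes together, the median difference from the sham median was 0.16 on the log2 scale in DHCA 3, 0.14 in DHCA 4, 0.11 in DHCA 2 and 0.02 to 0.07 in the other 3. In sham, Sham 1 and Sham 5 held them in 7 of the 33 (21.2%), beside 21.1% of all tested genes. These pairs of libraries were picked after their values were seen, and no test was made of them.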
